A study of Mus musculus with 18 samples.

Results

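Hyaluronan metabolism was followed through 9 genes of 18264 listed in an RNA sequencing table of mouse neonatal ventricular cardiac fibroblasts (NVCFs), which are matrix-producing cells cultured from newborn hearts. The genes were Cemip, the synthases Has1 and Has2, the hyaluronidases Hyal1 and Hyal2, the receptor Cd44, and the binding or cross-linking proteins Vcan, Hapln1 and Tnfaip6. They were taken by gene symbol, and the set was chosen by a measured value, the higher Cemip level in OE-Foxm1 than in OE-NC libraries, so the members are described in that contrast with no p-value, and counts of calls in it support nothing. Each of 6 groups had 3 libraries. In the knockdown arm, si-Foxm1+Ang-II cells received siRNA against the cell-cycle transcription factor gene Foxm1 together with angiotensin II, a vasoactive peptide hormone used to stimulate fibroblasts. Ang-II cells received the hormone, si-Foxm1 cells received that siRNA without the hormone, and si-NC cells were the negative control of the knockdown. In the overexpression arm, OE-Foxm1 cells overexpressed Foxm1 and OE-NC cells were the negative control for it. Neither the vector nor the dose or duration of the hormone is given in the labels, which also leave unsaid if a control siRNA was used in the Ang-II cells. Nothing in them says that the 3 libraries of a group came from separate cultures, so the p-values below measure the spread between these libraries, which may be technical.

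Hyaluronan is a long unbranched sugar polymer that synthases in the plasma membrane extrude directly into the extracellular space. CEMIP binds hyaluronan and promotes its cleavage at the cell, HYAL2 cuts it at the cell surface and HYAL1 in lysosomes, while CD44 is its main receptor on fibroblasts. Versican (Vcan) is a large proteoglycan that attaches to hyaluronan, the link protein HAPLN1 locks that pair together, and TSG-6 (Tnfaip6) moves protein chains onto hyaluronan and so cross-links it. In the developing mouse heart, hyaluronan made by HAS2 and the versican bound to it fill the cardiac jelly from which the valve cushions form.

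Promoter sequences are shown for Cemip and Vcan, the members with the largest changes in level, which moved in opposite directions with angiotensin II. They run from 250 bases before to 50 bases after the annotated start, come from RefSeq on build GRCm38.p6 (the authors' build was mm39), and are written 5′ to 3′ on the gene's own strand, the minus strand in each case. Cemip is at chr7:84086456-84086755 and Vcan at chr13:89742463-89742762. Capitals mark matches to any of the motifs searched, on either strand: the forkhead core TAAACA, the cell cycle homology region core TTTGAA, the AP-1 motif TGANTCA, the TEAD core GGAATG, the NF-Y motif CCAAT and the TATA box TATAAA.
Cemip: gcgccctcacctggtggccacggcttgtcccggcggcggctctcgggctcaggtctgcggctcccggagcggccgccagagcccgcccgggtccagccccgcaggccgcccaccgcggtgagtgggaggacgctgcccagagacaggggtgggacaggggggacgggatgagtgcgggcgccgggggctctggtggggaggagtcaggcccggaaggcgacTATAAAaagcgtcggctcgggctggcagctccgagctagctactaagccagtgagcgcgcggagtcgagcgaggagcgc
Vcan: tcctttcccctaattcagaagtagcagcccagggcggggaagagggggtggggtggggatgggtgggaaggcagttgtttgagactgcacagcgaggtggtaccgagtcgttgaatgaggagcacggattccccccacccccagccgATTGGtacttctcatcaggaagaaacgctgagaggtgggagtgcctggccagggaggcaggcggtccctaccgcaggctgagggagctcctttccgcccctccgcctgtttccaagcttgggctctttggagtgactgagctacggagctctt
The Cemip window held 1 match, a TATA box at bases -29 to -24 from the start, and 73.7% G and C, the level that marked the 95th percentile of all 32851 promoters in the table (median 52.7%). In the Vcan window there was 1 match, an NF-Y motif on the opposite strand at bases -103 to -99, which the capitals show as ATTGG. Of the 9 members, 8 had a promoter in the table, and the forkhead core TAAACA was found in none of those 8 windows. Of all promoters, 13.4% held it. The other motifs were in 17.9% (TTTGAA), 7.81% (TGANTCA), 14.7% (GGAATG), 37.4% (CCAAT) and 13.6% (TATAAA) of all promoters. Among the members, TTTGAA matched in Has1, TGANTCA in Tnfaip6, and GGAATG in Hyal2 and Tnfaip6. CCAAT matched in Has1, Hyal1, Vcan and Tnfaip6, and TATAAA in Cemip alone. With 8 windows, shares of members were not compared with those of all promoters. The TATA box was added to the search after the Cemip letters had been seen. These are letter matches in a short window, not binding sites.

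The libraries held 14988993 to 19343343 counted fragments, as recovered from the deposited values. Levels are in FPKM, a fragment count scaled by gene length and by library total, which allows levels of different genes to be compared. Foxm1 itself had 3.55, 3.36 and 3.03 FPKM in si-Foxm1+Ang-II, 4.23, 4.03 and 5.65 FPKM in Ang-II, 6.06, 5.13 and 6.71 FPKM in si-Foxm1, and 10.4, 9.64 and 10.3 FPKM in si-NC libraries. It had 399, 480 and 487 FPKM in OE-Foxm1 and 15.7, 17.1 and 17.1 FPKM in OE-NC libraries. Foxm1 was thus lower with its siRNA and higher with its overexpression, as those labels say. It was also lower with angiotensin II alone, with a mean of 4.64 FPKM in Ang-II, 5.97 FPKM in si-Foxm1 and 10.1 FPKM in si-NC. The hormone label itself cannot be checked by Foxm1. Ang-II replicate 3 stood apart from its group, with a mean chi-square per gene of 5.03 and 5.46 against the other two libraries, where all other replicate pairs gave 1.69 to 2.88. The main changes that involve the Ang-II group are therefore also given without this library. The fibroblast markers numbered 10 and summed to 4059 to 5571 FPKM per library, with none at 0. Markers of other cell types were also present, and the 12 cardiomyocyte genes summed to 4592 to 13175 FPKM per library. Their sum was above the fibroblast sum in every group but si-Foxm1+Ang-II. In si-NC it was 12181 to 13175 FPKM, against 4574 to 4763 FPKM for the fibroblast genes. In si-Foxm1+Ang-II it was 4592 to 4741 FPKM, against 5010 to 5156 FPKM. Such sums are not shares of cells.

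Cemip was the most variable of the 9 genes and, by FPKM, the most abundant in every library. It had 22.8, 23.4 and 23.8 FPKM in the si-Foxm1+Ang-II libraries, 32.5, 36.8 and 60.7 FPKM in Ang-II, 63.5, 65.6 and 74.4 FPKM in si-Foxm1, and 114, 115 and 112 FPKM in si-NC. The 4 groups of the knockdown arm did not overlap, although Ang-II replicate 3 came close to the si-Foxm1 libraries. With Foxm1 siRNA alone Cemip fell to 67.8 ± 5.79 FPKM, against 113.7 ± 1.15 FPKM in si-NC (SD, n = 3 each). The log2 fold change, on the log2(FPKM + 1) scale used throughout, was -0.74 ± 0.15 (SE; limma, adjusted p = 0.000849).

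With angiotensin II alone Cemip fell to 43.3 ± 15.2 FPKM in Ang-II, against 113.7 ± 1.15 FPKM in si-NC (SD, n = 3 each). That change was -1.42 ± 0.15 (SE; limma, adjusted p = 5.64e-06), and -1.69 ± 0.06 without Ang-II replicate 3. By size it was number 12 of the 3268 genes called lower in that comparison. With siRNA and hormone together Cemip was lowest, at 23.4 ± 0.51 FPKM (SD, n = 3). It was lower than in Ang-II, with a log2 fold change of -0.81 ± 0.15 (SE; limma, adjusted p = 0.000451), or -0.55 ± 0.06 without Ang-II replicate 3 (adjusted p = 4.73e-06). Against si-Foxm1 cells the change was -1.496 ± 0.15 (limma, adjusted p = 3.96e-06). The siRNA effect with hormone minus the siRNA effect without it was -0.07 ± 0.22 (adjusted p = 0.928), and 0.19 ± 0.08 without Ang-II replicate 3 (adjusted p = 0.265), so a difference between them was not detected and its sign depended on 1 library.

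**Figure D1:**
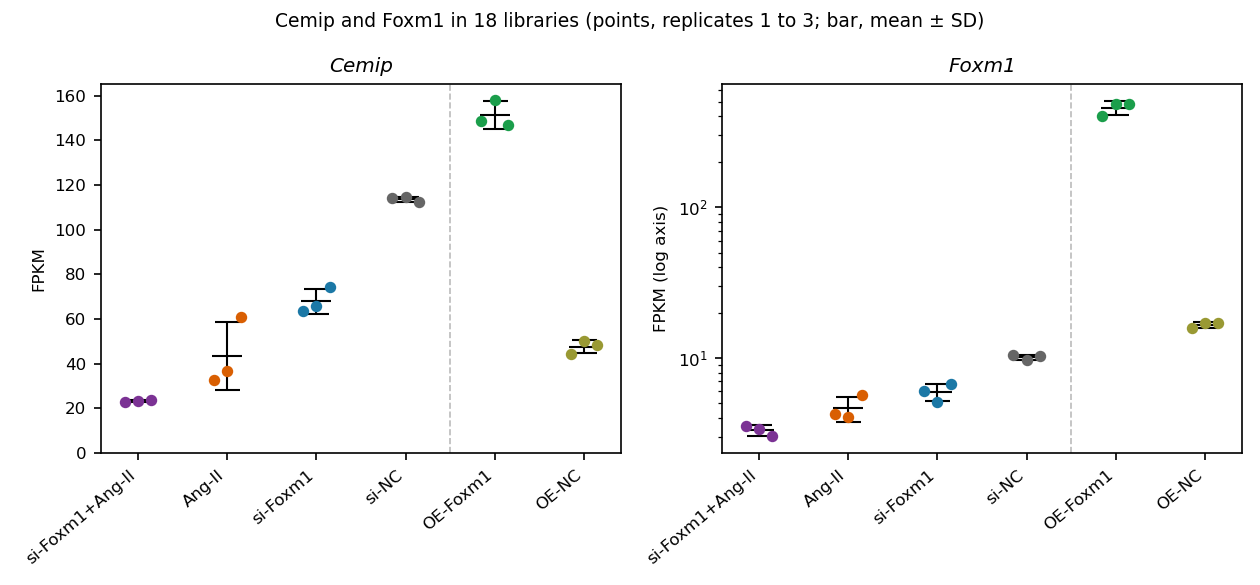
Left, Cemip FPKM on a linear axis, and right, Foxm1 FPKM on a log axis, in each of 18 libraries (points), with the mean and SD of each group (bars); a dashed line divides the knockdown arm from the overexpression arm. Cemip steps up over si-Foxm1+Ang-II, Ang-II, si-Foxm1 and si-NC, and the OE-Foxm1 libraries at 147 to 158 FPKM lie above the OE-NC libraries at 44.3 to 50.03 FPKM.

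Summed markers of other cell types also differed between these groups, not all in the order of Cemip. The 12 cardiomyocyte genes summed to 4592 to 4741 FPKM in si-Foxm1+Ang-II, 9093 to 10013 FPKM in Ang-II, 6075 to 6504 FPKM in si-Foxm1 and 12181 to 13175 FPKM in si-NC libraries, with no marker at 0. Of these 12, 11 were called lower with the siRNA alone and 11 with angiotensin II alone, beside 17.2% and 29.2% of all genes. The 10 macrophage and leukocyte genes summed to 118 to 137 FPKM in si-Foxm1+Ang-II, 288 to 318 FPKM in Ang-II, 121 to 150 FPKM in si-Foxm1 and 235 to 241 FPKM in si-NC libraries. Against si-NC, the cardiomyocyte sum was lower with the siRNA, with the hormone and with both, as Cemip was. The macrophage and leukocyte sum was lower with the siRNA and with both, and higher with angiotensin II alone. In Ang-II against si-Foxm1 the cardiomyocyte sum was higher and Cemip lower. Of 7 endothelial genes tested, 4 were called higher with the siRNA alone, beside 48.5% of all genes. Their part in the Cemip result was not tested. In these bulk samples, fewer cells that express a gene and less of its RNA per cell cannot be told apart.

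In the overexpression arm Cemip had 149, 158 and 147 FPKM in OE-Foxm1, against 44.3, 50.03 and 48.4 FPKM in OE-NC libraries. The ratio of means was 3.18 and the log2 fold change 1.65 ± 0.05 (SE), which is the value that selected these genes. In the order of genes higher in OE-Foxm1 it was number 13 of 3052, just below Serpina3i (log2 fold change 1.68) and just above Clec4n (1.58). The next gene up was Acod1 (1.84) and the next down Slc2a6 (1.52). Marker sums also differed in this arm. In OE-Foxm1 against OE-NC libraries the fibroblast sum was 4711 to 4776 against 4059 to 4278 FPKM. The cardiomyocyte sum was 7580 to 7873 against 6674 to 7177 FPKM, and the macrophage and leukocyte sum 255 to 288 against 175 to 195 FPKM. The endothelial sum was also higher, and the smooth muscle and mesothelial sums were lower. Their part in the Cemip difference was not tested. Over all 6 groups the Cemip level ran OE-Foxm1, si-NC, si-Foxm1, OE-NC, Ang-II and si-Foxm1+Ang-II from high to low. Of neighbours in that order, OE-NC and Ang-II overlapped and the others did not. The controls differed: Cemip in OE-NC, at 47.6 ± 2.97 FPKM, was under the 113.7 ± 1.15 FPKM of si-NC, and Foxm1 was higher in OE-NC. The arms were not tested against each other.

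Synthase transcripts were scarce. Has2, the synthase of the embryonic mouse heart, had 1.255, 1.59 and 1.51 FPKM in si-Foxm1+Ang-II, 1.12, 1.12 and 0.999 FPKM in Ang-II, 1.15, 1.27 and 1.32 FPKM in si-Foxm1, and 0.830, 0.905 and 0.922 FPKM in si-NC libraries, from 65 to 125 counts per library over the whole series. Both siRNA groups lay above their counterparts without the siRNA. Has2 rose by 0.25 ± 0.06 with the siRNA alone (limma, adjusted p = 0.00249; 0.45 with 0.1 added in place of 1 and 0.49 with voom) and by 0.23 ± 0.06 in si-Foxm1+Ang-II against Ang-II (adjusted p = 0.00477; 0.20 ± 0.07 without Ang-II replicate 3, 0.39 with 0.1 added and 0.41 with voom). Over the alternatives tried, these rises were 0.19 and 0.17 at the lowest, and the limma adjusted p reached 0.0272 and 0.0479. The Ang-II and si-NC libraries did not overlap, yet the difference of 0.14 ± 0.06 missed the threshold (limma, adjusted p = 0.0759; 0.17 ± 0.07 and 0.0560 without Ang-II replicate 3). It passed under median-of-ratios scaling (0.17) and quantile normalization (0.25). Has2 in si-Foxm1+Ang-II against si-Foxm1 differed by 0.12 ± 0.06 (limma, adjusted p = 0.118), and was called under both scalings and without si-Foxm1+Ang-II replicate 1 (0.18). In the overexpression arm Has2 ran the other way from Cemip, with 1.32, 1.08 and 1.246 FPKM in OE-Foxm1 and 1.68, 1.75 and 1.47 FPKM in OE-NC libraries. Has1 gave 0 to 5 counts per library and 33 in all 18, with 0 in 3 libraries. Over all 18 libraries the limit that a count of 0 would allow was 0.0741 to 0.0957 FPKM (3 counts, counting error only). Has1 was below the filter for testing, its groups overlapped in every comparison, and a difference was not detectable at this depth.

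Hyal2, the surface hyaluronidase, was higher wherever the siRNA was present. It had 11.7, 12.2 and 11.2 FPKM in si-Foxm1+Ang-II, 8.52, 8.98 and 9.04 FPKM in Ang-II, 13.0, 14.2 and 12.9 FPKM in si-Foxm1, and 9.48, 9.15 and 9.18 FPKM in si-NC libraries. No library without the siRNA in that arm reached the lowest one with it. The siRNA alone gave a rise of 0.48 ± 0.04 (limma, adjusted p = 7.22e-07), and si-Foxm1+Ang-II exceeded Ang-II by 0.37 ± 0.04 (adjusted p = 1.02e-05; 0.38 ± 0.05 without Ang-II replicate 3). Angiotensin II alone left a difference of -0.06 ± 0.04 that missed the threshold (adjusted p = 0.289) and changed sign under quantile normalization. In siRNA cells Hyal2 fell by 0.18 with the hormone (log2 fold change -0.18 ± 0.04, limma adjusted p = 0.00453), a call lost under both scalings (-0.10 with median-of-ratios scaling and -0.11 with quantile normalization). Overexpression gave 9.36, 9.03 and 9.15 FPKM in OE-Foxm1, all below the 11.2, 10.2 and 11.03 FPKM of OE-NC libraries.

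Hyal1, the lysosomal hyaluronidase, had 1.63, 1.89 and 1.88 FPKM in si-Foxm1+Ang-II, 2.29, 2.45 and 2.37 FPKM in Ang-II, 2.40, 2.52 and 2.03 FPKM in si-Foxm1, and 2.39, 2.02 and 1.95 FPKM in si-NC libraries. It was low where siRNA and hormone met, and the other 3 groups of the arm overlapped. Against Ang-II it fell, with a log2 fold change of -0.27 ± 0.07 (limma, adjusted p = 0.00412; -0.27 ± 0.08 without Ang-II replicate 3), and against si-Foxm1 one of -0.24 ± 0.07 (adjusted p = 0.0104), a call lost under quantile normalization (-0.12) and without si-Foxm1 replicate 2 (-0.20). The siRNA alone gave 0.09 ± 0.07 (adjusted p = 0.280), which turned to -0.00942 under quantile normalization and to -0.00261 under median-of-ratios scaling. Angiotensin II alone gave 0.11 ± 0.07 (limma, adjusted p = 0.206), called only under quantile normalization (0.21). In OE-Foxm1 Hyal1 had 2.13, 2.39 and 2.17 FPKM, all above the 1.60, 1.63 and 1.42 FPKM of OE-NC. Its locus on chromosome 9 overlaps Naa80 and Hyal3 on the same strand in GENCODE M21, so how the authors' counting split shared reads bears on its level. Naa80 averaged 7.06 to 9.12 FPKM by group.

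Cd44, the hyaluronan receptor, was higher with angiotensin II. Its levels were 15.1, 15.2 and 16.1 FPKM in si-Foxm1+Ang-II, 14.8, 13.7 and 11.9 FPKM in Ang-II, 11.6, 11.2 and 11.7 FPKM in si-Foxm1, and 11.6, 10.96 and 11.6 FPKM in si-NC libraries. Every hormone library lay above every library without it in the knockdown arm, Ang-II replicate 3 by the least. The rise was 0.22 ± 0.06 in Ang-II against si-NC (limma, adjusted p = 0.00818) and 0.30 ± 0.04 without Ang-II replicate 3 (adjusted p = 0.000101). Within siRNA cells the hormone gave 0.40 ± 0.06 (limma, adjusted p = 8.77e-05). The siRNA alone left 0.01 ± 0.06 (adjusted p = 0.879), of negative sign under both scalings (-0.11 in each). With the hormone, Cd44 in si-Foxm1+Ang-II exceeded Ang-II by 0.19 ± 0.06 (limma, adjusted p = 0.0116), or by 0.11 ± 0.04 without Ang-II replicate 3 (adjusted p = 0.0443). That call was lost under median-of-ratios scaling (0.10) and quantile normalization (0.11). Overexpression libraries had 15.03, 15.5 and 16.2 FPKM in OE-Foxm1, below the 17.2, 17.96 and 17.3 FPKM in OE-NC.

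Vcan responded to hormone and siRNA in opposite directions, and it was the member whose siRNA effect was called different with the hormone. It had 18.3, 18.2 and 19.7 FPKM in si-Foxm1+Ang-II, 30.1, 30.2 and 29.4 FPKM in Ang-II, 14.04, 13.6 and 13.9 FPKM in si-Foxm1, and 16.6, 17.1 and 17.6 FPKM in si-NC libraries. These 4 groups did not overlap, and Ang-II replicate 3 was close to the rest of its group. Angiotensin II alone raised Vcan to 29.9 ± 0.44 FPKM, against 17.1 ± 0.50 FPKM in si-NC (SD, n = 3 each), a change of 0.77 ± 0.04 (SE; limma, adjusted p = 4.10e-09; 0.78 ± 0.04 without Ang-II replicate 3). It was number 85 of 1702 genes called higher. In si-Foxm1+Ang-II against si-Foxm1 it rose by 0.41 ± 0.04 (limma, adjusted p = 9.11e-07).

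Vcan was lower with the siRNA, with a log2 change of -0.65 ± 0.04 in hormone-treated cells (si-Foxm1+Ang-II against Ang-II, limma adjusted p = 5.92e-09; -0.66 ± 0.04 without Ang-II replicate 3) and of -0.29 ± 0.04 in si-Foxm1 against si-NC (adjusted p = 1.06e-05). The difference between these effects was -0.36 ± 0.05 (limma interaction, adjusted p = 0.00437, and 0.00528 without Ang-II replicate 3). Of all genes tested, 0.403% were called higher and 0.519% lower in that interaction. On the log2(FPKM + 1) scale, which understates changes at low FPKM, Hyal1 had an interaction of the same size with a larger error. It was -0.36 ± 0.10 (limma, adjusted p = 0.113). Under the other settings the interaction ranged from -0.53 to -0.33 for Hyal1 and from -0.37 to -0.31 for Vcan. That of Hyal1 missed the threshold in each, and also with each library left out (lowest limma adjusted p 0.0503). Cd44 had an interaction of 0.18 ± 0.08 (adjusted p = 0.343), or 0.10 ± 0.06 without Ang-II replicate 3. Beside Vcan, the 7 smooth muscle and pericyte genes summed to 122 to 128 FPKM in si-Foxm1+Ang-II, 138 to 162 FPKM in Ang-II, 91.0 to 103 FPKM in si-Foxm1 and 119 to 128 FPKM in si-NC libraries, with none at 0. The 10 fibroblast genes summed to 5010 to 5156 FPKM in si-Foxm1+Ang-II and 5236 to 5571 FPKM in Ang-II libraries. They summed to 4197 to 4400 FPKM in si-Foxm1 and 4574 to 4763 FPKM in si-NC libraries, the order of groups seen for Vcan. The part of either list in the Vcan result was not tested. With overexpression Vcan had 15.4, 15.1 and 16.0 FPKM in OE-Foxm1 and 14.6, 15.1 and 14.6 FPKM in OE-NC, which overlapped.

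**Figure D2:**
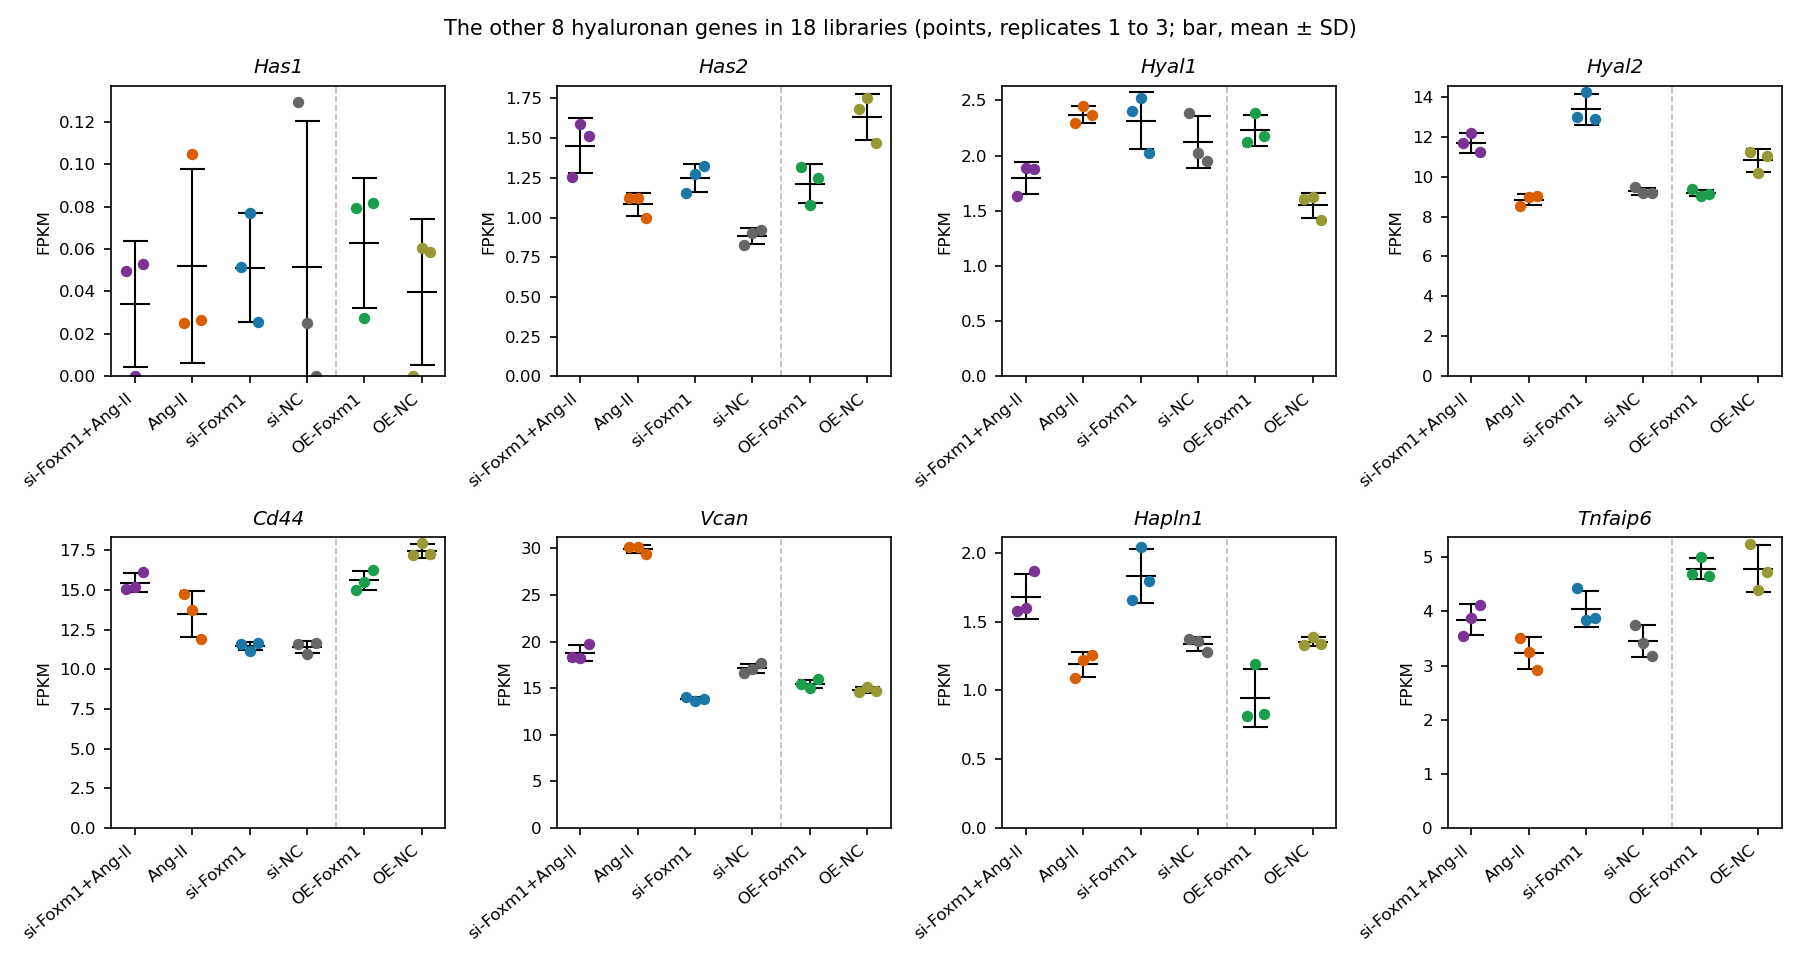
FPKM of the other 8 hyaluronan genes in each of 18 libraries (points), with the mean and SD of each group (bars); axes start at 0 (which trims the lower Has1 bar in si-NC) and differ between genes, and a dashed line divides the arms. Vcan stands at 29.4 to 30.2 FPKM in Ang-II and 18.2 to 19.7 FPKM in si-Foxm1+Ang-II, Hyal2 is higher in the groups with Foxm1 siRNA, and Has1 stays at or below 0.129 FPKM.

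Hapln1, the link protein, followed the siRNA upwards. It had 1.57, 1.60 and 1.87 FPKM in si-Foxm1+Ang-II, 1.09, 1.22 and 1.26 FPKM in Ang-II, 1.66, 2.05 and 1.79 FPKM in si-Foxm1, and 1.38, 1.36 and 1.28 FPKM in si-NC libraries. The siRNA groups did not overlap the groups without it. The rise was 0.27 ± 0.06 for si-Foxm1 against si-NC (limma, adjusted p = 0.00184; 0.42 with 0.1 added and 0.45 with voom) and 0.29 ± 0.06 for si-Foxm1+Ang-II against Ang-II (adjusted p = 0.00135; 0.31 ± 0.07 without Ang-II replicate 3, 0.46 with 0.1 added and 0.49 with voom). At the lowest over the alternatives tried, these rises were 0.19 and 0.23, and the limma adjusted p reached 0.0192 and 0.00828. For the hormone the differences were -0.09 ± 0.06 in Ang-II against si-NC (limma, adjusted p = 0.252) and, for hormone-treated siRNA cells against si-Foxm1 cells, -0.08 ± 0.06 (adjusted p = 0.329; sign reversed under quantile normalization). OE-Foxm1 libraries had 0.815, 1.19 and 0.827 FPKM, below the 1.33, 1.39 and 1.34 FPKM of OE-NC, and OE-Foxm1 replicate 2 was the nearest to them.

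Tnfaip6, the cross-linking enzyme TSG-6, changed by at most 0.20 on the log2(FPKM + 1) scale in any comparison of the knockdown arm. With voom the siRNA changes were 0.23 in si-Foxm1 against si-NC and 0.25 in si-Foxm1+Ang-II against Ang-II. Tnfaip6 levels were 3.55, 3.87 and 4.12 FPKM in si-Foxm1+Ang-II, 3.51, 3.26 and 2.92 FPKM in Ang-II, 4.44, 3.85 and 3.87 FPKM in si-Foxm1, and 3.76, 3.42 and 3.17 FPKM in si-NC libraries. Groups with the siRNA lay just above their counterparts without it. The changes of 0.18 ± 0.07 (si-Foxm1 against si-NC, limma adjusted p = 0.0322) and 0.20 ± 0.07 (si-Foxm1+Ang-II against Ang-II, adjusted p = 0.0243) were each lost under both scalings (0.07 and 0.08 for the first, 0.11 and 0.12 for the second), with no filter and with voom. Without Ang-II replicate 3 the second was 0.14 ± 0.07 (adjusted p = 0.0990). The first was also lost without si-Foxm1 replicate 1 (0.13), si-NC replicate 2 (0.18) or si-NC replicate 3 (0.14), and the second without si-Foxm1+Ang-II replicate 2 (0.19) or 3 (0.16). With the hormone Tnfaip6 differed by -0.07 ± 0.07 in Ang-II against si-NC (limma, adjusted p = 0.427; sign reversed under quantile normalization). Between si-Foxm1+Ang-II and si-Foxm1 the difference was -0.06 ± 0.07 (adjusted p = 0.514; sign reversed under both scalings). OE-Foxm1 libraries had 4.70, 5.01 and 4.65 FPKM and OE-NC libraries 5.25, 4.40 and 4.73 FPKM, which overlapped.

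Counted together, 8 members passed the filter of a mean of 1 FPKM and Has1 did not. With Foxm1 siRNA alone 4 rose and 2 fell, where 48.5% of 11180 tested genes were called higher and 17.2% lower. For si-Foxm1+Ang-II against Ang-II, 5 rose and 3 fell, against 44.0% higher and 17.4% lower of all genes. For Ang-II against si-NC 2 rose and 1 fell, with 15.2% of all genes higher and 29.2% lower. Without Ang-II replicate 3, the members that missed the threshold there missed it again, at 0.11 for Hyal1, -0.08 for Hyal2, -0.12 for Hapln1 and -0.02 for Tnfaip6. For si-Foxm1+Ang-II against si-Foxm1, 2 rose and 3 fell, with 12.9% higher and 34.6% lower of all genes. With 8 members tested, their shares of calls were not tested against that background in any comparison, and nothing is read from them. The members' median change was 0.14, against a median of 0.11 over all genes, with the siRNA alone, and 0.20, against 0.09, in si-Foxm1+Ang-II against Ang-II. Relative to the 0.11 shift of all genes, Cemip changed by -0.85, Vcan by -0.40, Hyal2 by 0.37, Hapln1 by 0.16, Has2 by 0.14 and Tnfaip6 by 0.07 with the siRNA alone. Pairs of these comparisons share a group of libraries, so their values are not independent. In OE-Foxm1 against OE-NC, the contrast that chose the set, 2 members were called higher and 4 lower, beside 27.1% and 28.0% of 11259 genes.

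**Figure D3:**
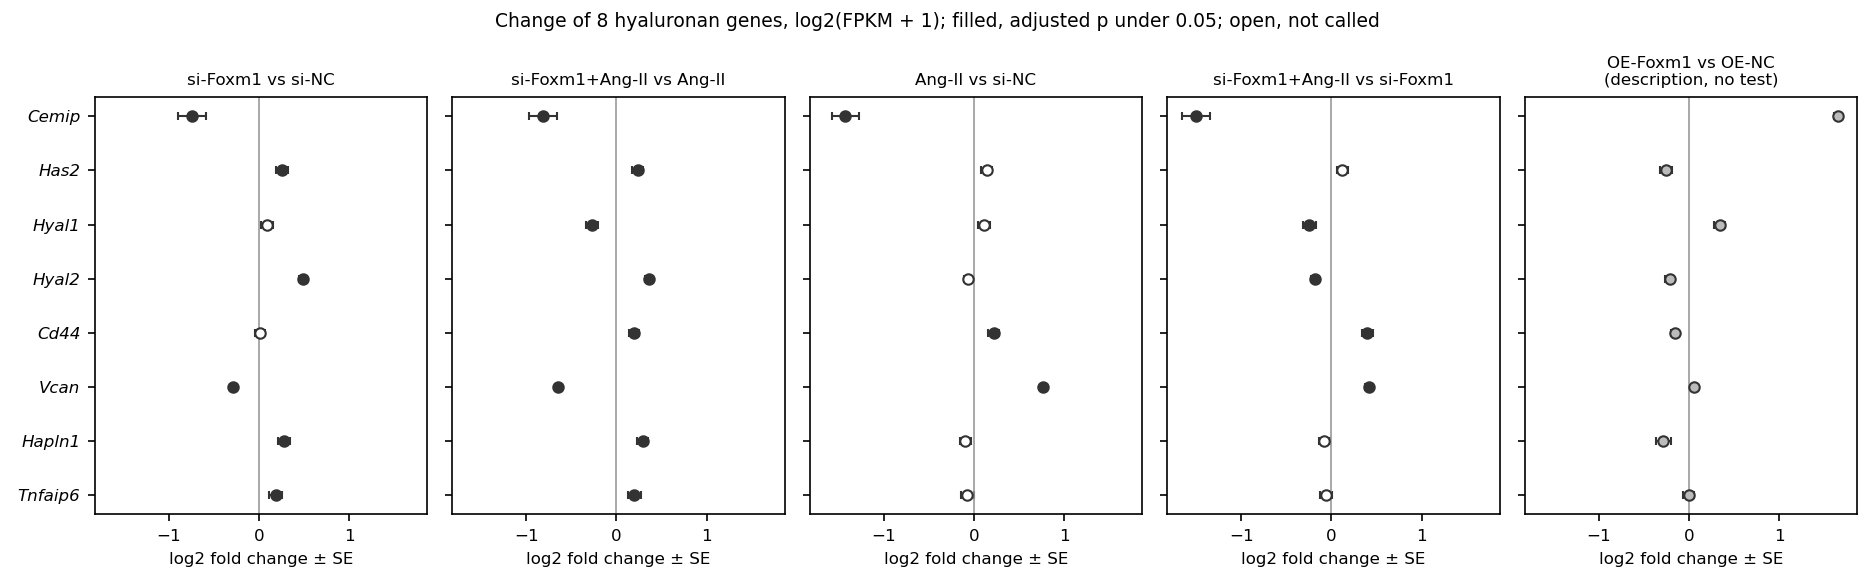
Log2 fold change with its SE, on the log2(FPKM + 1) scale, for the 8 tested genes in 5 comparisons; filled points passed an adjusted p of 0.05, open points did not, and the grey points of OE-Foxm1 against OE-NC are a description. Cemip is the far left point in the 4 knockdown-arm panels and the far right point, at 1.65, in the last, and Vcan lies right of 0 with angiotensin II and left of 0 with siRNA.

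Because Cemip varied most, the summed FPKM of the 9 genes rose and fell mainly with it. Cemip made up 29.7% to 30.0% of the sum in si-Foxm1+Ang-II, 34.6% to 51.2% in Ang-II, 56.8% to 61.1% in si-Foxm1 and 71.1% to 71.8% in si-NC libraries. In OE-Foxm1 it was 74.5% to 76.2% and in OE-NC 45.6% to 48.8%. The other 8 genes together ranged far less, from 53.1 to 56.5 FPKM in si-Foxm1+Ang-II, 57.9 to 61.4 FPKM in Ang-II, 47.4 to 48.8 FPKM in si-Foxm1 and 44.9 to 46.2 FPKM in si-NC. They summed to 48.8 to 50.3 FPKM in OE-Foxm1 and 51.9 to 52.9 FPKM in OE-NC. Set against the synthases, the summed FPKM of Cemip, Hyal1 and Hyal2 was 23.6 to 27.7 times that of Has1 and Has2 in si-Foxm1+Ang-II, 37.7 to 70.4 times in Ang-II, 60.9 to 66.3 times in si-Foxm1 and 131 to 135 times in si-NC libraries. The ratio was 115 to 153 in OE-Foxm1 and 33.9 to 39.9 in OE-NC, a ratio of transcripts and not of enzyme activity.

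**Figure D4:**
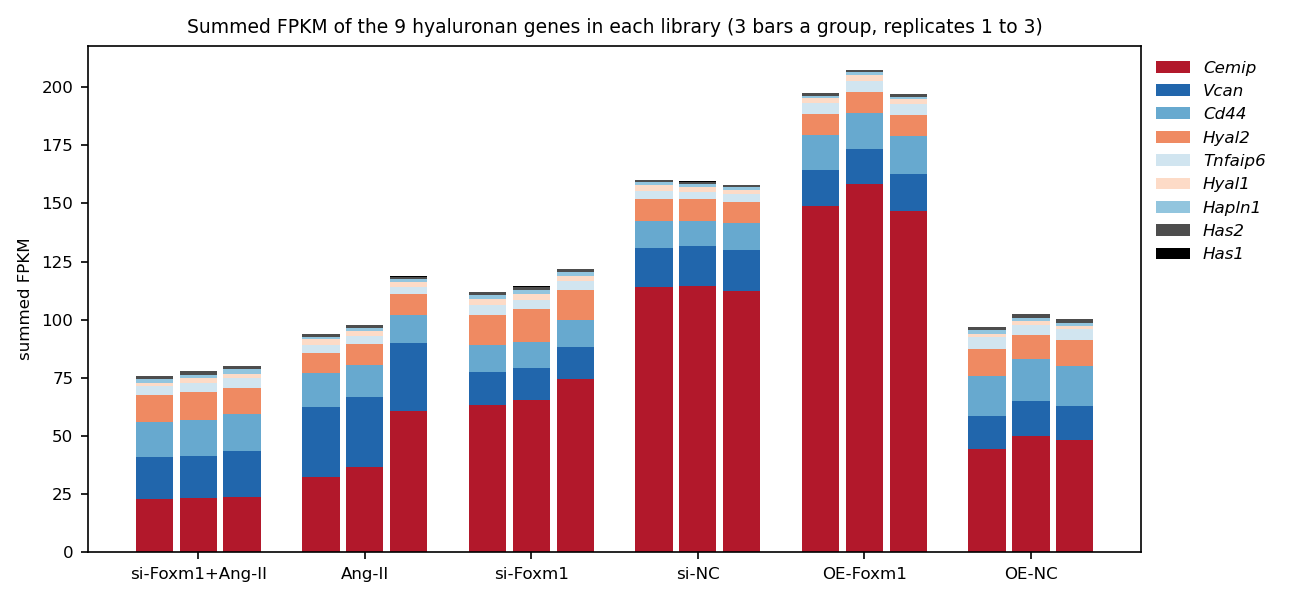
Stacked FPKM of the 9 hyaluronan genes in each library (bars, replicates 1 to 3 of each group), coloured by gene. The Cemip segment differs most between bars, whose heights run from 75.9 FPKM in a si-Foxm1+Ang-II library to 208 FPKM in an OE-Foxm1 library, and the widened second segment in Ang-II is Vcan.

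Other genes of the pathway, 47 in 5 lists, had 46 in the table and 28 past the filter. With Foxm1 siRNA alone 8 of the 28 rose and 9 fell (6 and 13 under median-of-ratios scaling, 7 and 11 under quantile normalization), with a median of 0.05, against 0.11 over all genes, of which 48.5% were called higher and 17.2% lower. Of 11 genes of precursor supply, 3 rose and 2 fell. Gfpt1, which opens the hexosamine route to the precursor UDP-N-acetylglucosamine, fell to 10.1 FPKM in si-Foxm1, against 13.7 FPKM in si-NC (log2 fold change -0.40 ± 0.05, limma adjusted p = 6.74e-06). The deaminases that run that route backwards split, Gnpda1 rising by 0.49 ± 0.04 and Gnpda2 changing by -0.43 ± 0.05. Of 5 versican-cleaving proteases, 4 fell, led by Adamts5 at 52.9 FPKM in si-Foxm1, against 84.2 FPKM in si-NC (-0.66 ± 0.09, adjusted p = 3.60e-05), with Adamts1 at -0.33 ± 0.10 and Adamts15 at -0.25 ± 0.07. In breakdown, Gusb, the lysosomal beta-glucuronidase, rose by 0.26 ± 0.04. Cemip2, a relative of Cemip that cleaves hyaluronan at the surface of mouse cells, rose by 0.21 ± 0.05 (limma, adjusted p = 0.00293), a call lost under both scalings (0.10 in each). Of the 5 receptors Stab1 and Layn rose (0.25 and 0.24, the call of Layn lost under both scalings), and of the 3 binding or cross-linking genes 1 rose and 2 fell.

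In si-Foxm1+Ang-II against Ang-II 8 of the 28 rose and 7 fell (6 and 12 under median-of-ratios scaling, 6 and 10 under quantile normalization), beside 44.0% and 17.4% of all genes. Without Ang-II replicate 3 the counts were 9 and 6. Gnpda2 (-0.50 ± 0.05), Gfpt1 (-0.38 ± 0.05) and Adamts5 (-0.49 ± 0.09, or -0.34 ± 0.05 without Ang-II replicate 3) fell and Gnpda1 (0.41 ± 0.04) rose, as did Habp4, which binds hyaluronan and RNA, at 0.38 ± 0.04, and all 5 were also called without Ang-II replicate 3. Acan, the cartilage proteoglycan aggrecan and a relative of versican, changed by -0.35 ± 0.08 (limma, adjusted p = 0.00265; -0.43 ± 0.08 without Ang-II replicate 3). Hmmr, a hyaluronan receptor that also works at the mitotic spindle, had 6.39 ± 0.26 FPKM in si-Foxm1+Ang-II and 3.98 ± 0.58 FPKM in Ang-II (SD, n = 3 each), a rise of 0.57 ± 0.07 (SE; limma, adjusted p = 1.19e-05; 0.66 ± 0.06 without Ang-II replicate 3). Its siRNA effect with hormone minus that without was 0.43 ± 0.10 (limma interaction, adjusted p = 0.0661), and it passed under median-of-ratios scaling (0.46), quantile normalization (0.44), voom (0.53), a replicate block, all 6 groups in 1 fit and without Ang-II replicate 3 (0.52).

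Angiotensin II alone gave 9 higher and 10 lower of the 28 (11 and 8 under median-of-ratios scaling, 10 and 7 under quantile normalization), beside 15.2% and 29.2% of all genes, and again 9 and 10 without Ang-II replicate 3. The 5 receptors included 4 that fell, of which Hmmr changed most, to 3.98 FPKM in Ang-II, against 9.82 FPKM in si-NC (-1.12 ± 0.07, limma adjusted p = 5.07e-08; -1.21 ± 0.06 without Ang-II replicate 3). Stab1, a scavenger receptor, changed by -0.65 ± 0.06 and Tlr4, a pattern recognition receptor, by -0.31 ± 0.05. Acan rose with Vcan, to 4.02 ± 0.51 FPKM in Ang-II, against 1.67 ± 0.21 FPKM in si-NC (0.91 ± 0.08, limma adjusted p = 1.29e-06; 0.99 ± 0.08 without Ang-II replicate 3). Adamts9, a protease that cuts versican, fell to 4.77 FPKM in Ang-II, against 11.2 FPKM in si-NC (-1.11 ± 0.11, adjusted p = 2.15e-06; -1.27 ± 0.06 without Ang-II replicate 3), while Adamts15 rose by 0.31 ± 0.07. Ugdh, which makes the precursor UDP-glucuronic acid, fell by 0.34 on the log2 scale. These 4 genes, Stab1, Tlr4, Adamts15 and Ugdh, were also called without Ang-II replicate 3. In siRNA cells (si-Foxm1+Ang-II against si-Foxm1) 11 rose and 11 fell (12 and 7 under median-of-ratios scaling, 13 and 8 under quantile normalization; 12.9% and 34.6% of all genes), again with Acan higher (0.83 ± 0.08, and 1.27 with voom) and Adamts9 (-1.03 ± 0.11), Stab1 (-0.94 ± 0.06), Hmmr (-0.70 ± 0.07) and Ugdh (-0.27 ± 0.04) lower.

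In OE-Foxm1 against OE-NC 10 of the 28 were called higher and 7 lower, beside 27.1% and 28.0% of all genes. The widest differences were in Tlr2, a pattern recognition receptor, with 5.08 ± 0.22 FPKM in OE-Foxm1 and 1.29 ± 0.13 FPKM in OE-NC (SD, n = 3 each; log2 fold change 1.41), and in Ptx3, a protein that joins TSG-6 in cross-linking hyaluronan, with 41.7 FPKM in OE-Foxm1 and 24.4 FPKM in OE-NC (0.75). Hexa (0.43) and Ugdh (0.33) were higher, and Slc35d1, a carrier of nucleotide sugars (-0.55), Acan (-0.38, and -0.70 with voom) and Cemip2 (-0.37) were lower. The macrophage and leukocyte genes summed to 255 to 288 FPKM in OE-Foxm1 and 175 to 195 FPKM in OE-NC libraries, with none at 0, and their part in these differences was not tested.

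**Figure D5:**
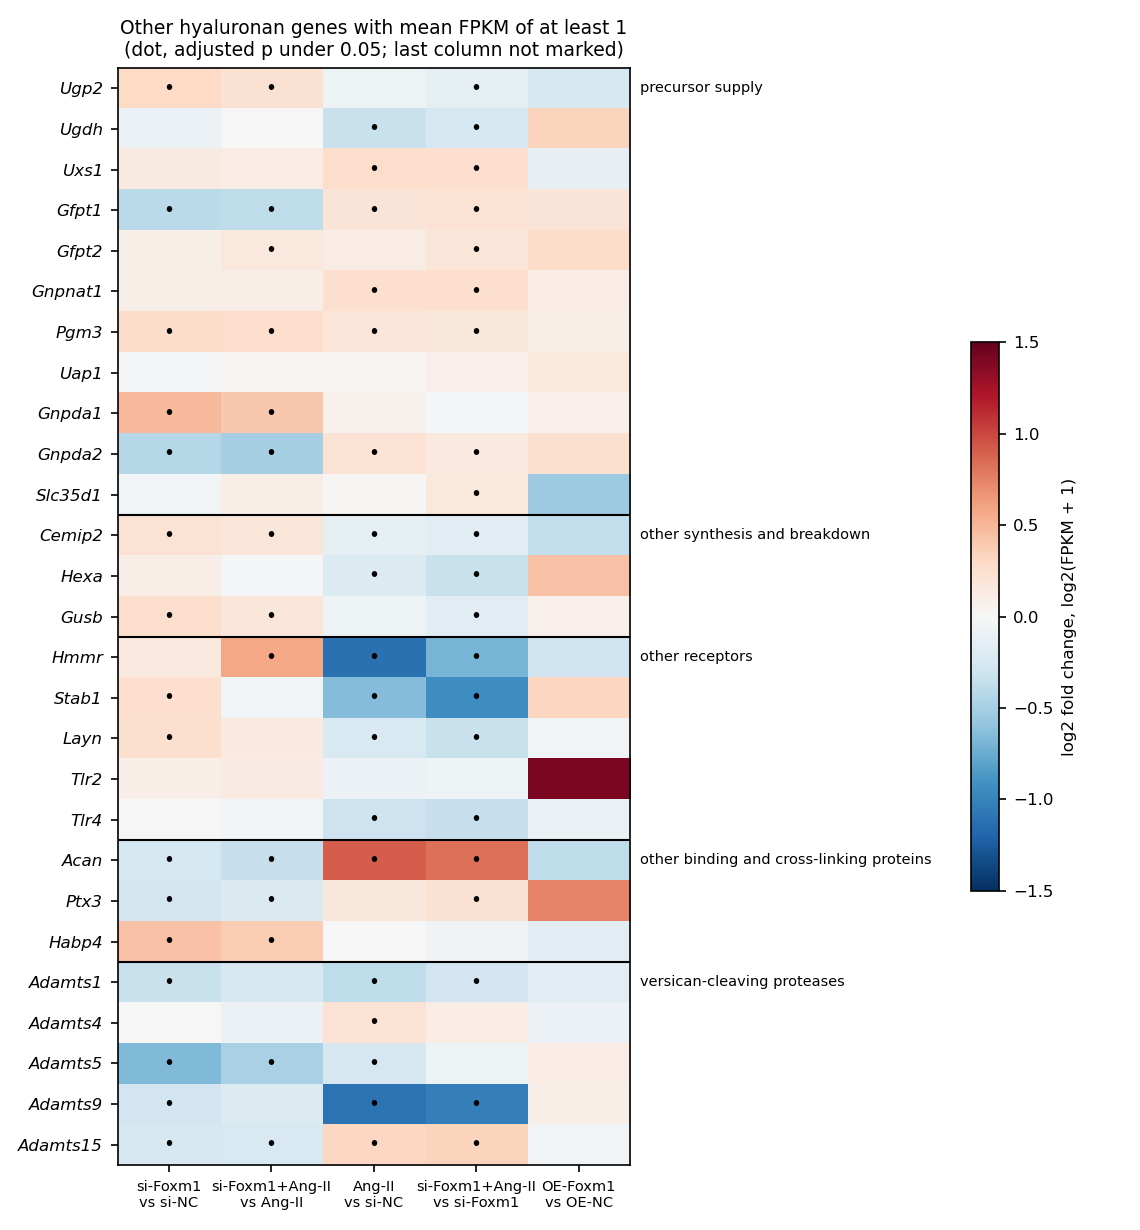
Log2 fold change, on the log2(FPKM + 1) scale, of 27 of the 28 other hyaluronan genes past the filter (rows, grouped by list) in 5 comparisons (columns); a dot marks an adjusted p under 0.05 in the knockdown arm, and the last column is unmarked. Acan is red and Hmmr, Stab1 and Adamts9 are blue in the columns of angiotensin II, and Tlr2 is the darkest red at 1.41 in the overexpression column.

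Across the 18 libraries, the genes whose log2(FPKM + 1) ran most like Cemip, of 11235 ranked, were Ece1 (Pearson r = 0.977), H1f0 (0.968), Bmx (0.959), Sema3f (0.957) and Pak3 (0.955). Ece1 averaged 26.3 FPKM in si-Foxm1+Ang-II, 30.1 FPKM in Ang-II, 35.1 FPKM in si-Foxm1 and 43.4 FPKM in si-NC libraries, and 43.2 FPKM in OE-Foxm1 and 33.4 FPKM in OE-NC libraries. No other tested member came close to Cemip: r was -0.51 for Has2, -0.48 for Hapln1, -0.39 for Vcan, -0.37 for Hyal2, -0.33 for Cd44, 0.20 for Tnfaip6 and 0.39 for Hyal1. For Foxm1 it was 0.73 over all 18 libraries and 0.97 within the 12 of the knockdown arm, and for Cd44 -0.93 within those 12. The libraries fall into 6 treated groups, so these values describe the order of groups and not independent samples. The 18 libraries also include OE-Foxm1 and OE-NC, whose Cemip difference selected the set and where Foxm1 was itself overexpressed. Values of r over all 18 are therefore a description only.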

How the data were processed

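RNA was measured in 18 libraries, grouped by their titles. Per the labels' protocols these were stranded mRNA libraries, and per the submitters' processing notes fastp, HISAT2 and HTSeq were used with build mm39. Versions of these tools, the gene annotation and the strand setting were not given in the sources used here. FPKM values per gene and library, named by symbol, are what the authors deposited. Whole counts and totals were recovered from them: all 17960 genes above 0 came out whole within 0.02. Totals set the depth, and the count limits cover counting error only.

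The log2 of FPKM + 1 was analysed, which understates changes of genes with low FPKM, with no scaling between libraries. Genes with a mean of at least 1 FPKM were fitted with limma 3.58.1 in R 4.3.3 (eBayes with trend), in 1 fit of 12 knockdown-arm libraries and 1 of 6 overexpression libraries, and adjusted by Benjamini-Hochberg over all genes tested, with 0.05 as the threshold. Scripts were tested on simulated data. Has1 was below the filter. Tables and motif searches used Python 3.11.15. Protein sequences were not used here, and 1 pathway gene is counted but not reported singly here.

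Members and gene lists were chosen with earlier results of these data known. Named genes were the members, up to 3 genes per list with the smallest unadjusted p in a comparison, the 5 genes most like Cemip, and its nearest neighbours by overexpression fold; a gene so named in 1 comparison is also quoted in others. Tried as alternatives were median-of-ratios scaling and quantile normalization, adding 0.1 in place of 1, a lower filter (0.1 FPKM) and no filter, a replicate block, voom on recovered counts, all 6 groups or only those compared, and each library left out.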

Additional observations from a re-analysis of the deposited data

Results flagged for a closer look

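Vcan stood out because its siRNA effect differed between cells with and without angiotensin II. The siRNA effect was -0.65 ± 0.04 with the hormone (si-Foxm1+Ang-II against Ang-II) and -0.29 ± 0.04 without it (si-Foxm1 against si-NC), and the interaction term of the limma fit was -0.36 ± 0.05 on the log2(FPKM + 1) scale (adjusted p = 0.00437). Every one of the 3 si-Foxm1+Ang-II libraries lay below every Ang-II library, and every si-Foxm1 library below every si-NC library. Its adjusted p ranged over 1.73e-04 to 0.0152 under the other settings and over 0.00321 to 0.0184 with each library left out.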

How the results depend on the processing

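Leaving a library out kept 504 of 528 single-gene values on the same side of the threshold and in the same direction, and the other alternatives kept 388 of 415. Many of these could not turn. A left-out library of neither compared group leaves the fold change as it was. So do the filters, the replicate block and the choice of groups fitted, which move only the error and the adjusted p. The all-gene median moved by up to 0.11 between groups, and scaling it away changed the balance of calls. With Foxm1 siRNA alone 5418 genes were higher and 1924 lower, against 2954 and 3273 under median-of-ratios scaling and 3430 and 2975 under quantile normalization. In si-Foxm1+Ang-II against Ang-II these were 4918 and 1942, against 3082 and 3116, and 3330 and 2889. For Ang-II against si-NC they were 1702 and 3268, against 2481 and 2424, and 2679 and 2292, and in si-Foxm1+Ang-II against si-Foxm1 1441 and 3873, against 2466 and 2267, and 2425 and 2331. Members called in Ang-II against si-NC numbered 5 under quantile normalization, where Has2 and Hyal1 passed, 4 under median-of-ratios scaling, where Has2 passed, and 3 in the reported fit. Genes called in the interaction numbered 103, and 57 with no filter, 229 with voom and 169 with all 6 groups in 1 fit, and 37 to 196 with a library left out (196 without Ang-II replicate 3).

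Signs that turned in the knockdown arm were all of changes that missed the threshold. With siRNA alone these were Hyal1 (-0.00942 under quantile normalization, -0.00261 under median-of-ratios scaling) and Cd44 (-0.11 under each, and -0.0139 to 0.0288 with a library left out). For Ang-II against si-NC they were Hyal2 (0.00226) and Tnfaip6 (0.0145) under quantile normalization. In si-Foxm1+Ang-II against si-Foxm1 they were Hapln1 (0.0454) and Tnfaip6 (0.0561) under quantile normalization, and Tnfaip6 (0.00618) under median-of-ratios scaling. With a library left out, interactions ranged from -0.25 to 0.19 for Cemip, -0.0605 to 0.0388 for Has2, -0.0341 to 0.0695 for Hapln1 and -0.0388 to 0.0682 for Tnfaip6, and Tnfaip6 in OE-Foxm1 against OE-NC from -0.0487 to 0.0567. Apart from fewer libraries or genes in a fit, the cause was not tested.

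Pairing by replicate number was not assumed, since not every same-numbered pair correlated above 0.1. In the knockdown arm 7 of 18 same-numbered pairs and 2 of 36 others did, and in the overexpression arm 1 of 3 and 0 of 6. The best match in another group carried the same number in 30 of 42 cases, a hint from the data and not from the design. With a replicate block, 6 members and 7411 genes were called for si-Foxm1 alone, 3 and 5008 for Ang-II alone, 8 and 6945 for the siRNA in hormone-treated cells, 5 and 5397 for the hormone in siRNA cells, 1 and 137 for the interaction, and 6 and 6210 for overexpression, with the same member counts as without it. Depth limits Has1, at 0 to 5 counts a library, and leaves Has2, Hapln1, Hyal1 and Tnfaip6 on 65 to 197 counts.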
